A study of Homo sapiens with 6 samples.

Results

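The 40 genes described here carry glucose into the cell, break it down to lactate and form the best known part of the transcriptional response to low oxygen. They were taken by gene symbol from 26255 listed rows, and all 40 were found. They comprise 4 glucose and lactate transporters, 17 enzymes of glycolysis, 7 PFKFB and PDK enzymes that regulate the pathway, 4 genes for HIF subunits and their oxygen sensors, and 8 other genes known as targets of HIF. Their mRNA was measured in HT29, a long-established human cell line derived from a colorectal adenocarcinoma. The 3 treated libraries came from HT29 cells given YM155, a small molecule known as a suppressor of survivin (gene BIRC5), for 24 h, and the 3 control libraries from HT29 cells given DMSO, the solvent. The sources used here give neither dose nor oxygen level. Whether the 3 libraries of a group came from separate cultures is not stated either, so p-values measure only the spread between these libraries, which may be technical.

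Glycolysis splits glucose into pyruvate in the cytosol, and lactate dehydrogenase turns pyruvate into lactate, which leaves the cell through monocarboxylate transporters. HIF is a pair of a labile alpha subunit, HIF1A or EPAS1 (HIF-2 alpha), and the stable ARNT. When oxygen is present, prolyl hydroxylases of the EGLN family mark the alpha subunit for destruction, so HIF activity is set mostly at the protein level, which these data do not hold. Tumour cells of the colon, as of many tissues, are known for high glycolysis even with oxygen at hand, and many of the genes below are targets of HIF, of MYC or of both.

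Levels are FPKM (fragments per kilobase, relative to library size), which are per length and so can be set side by side between genes. A gene was tested when it reached 1 FPKM in at least 3 of the 6 libraries, which 12035 genes did. The difference was tested with limma on log2(FPKM + 1), and a gene was called where its Benjamini-Hochberg adjusted p over all tested genes was under 0.05. A log2 change below is on that scale, on which scarce transcripts appear to change less than they do, and a fold is the ratio of mean FPKM. YM155 moved most of the transcriptome: 43.6% of tested genes were called higher and 41% lower, so a call alone sets no gene apart. Of the tested genes, 15.9% were called higher with a log2 change of at least 1, and 11.8% lower with a log2 change of -1 or less. All YM155 libraries lay above all DMSO libraries for 44.4% of tested genes and below them for 41.5%.

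The libraries of a group were alike, with Pearson correlations of log2 values across genes of 0.992 to 0.994 within groups and 0.860 to 0.878 between groups. Judged from the steps between low FPKM values, effective depth was near 24.4 to 27.3 M reads with DMSO and near 15.2 to 17.9 M with YM155. Summed FPKM ran from 538478 to 563296 with DMSO and from 678699 to 696067 with YM155. Rescaling to a common sum or a common upper quartile therefore moved the median log2 change of all tested genes by -0.28 or -0.31, and quantile normalization by -0.11. BIRC5 was at 21.8 ± 0.940 FPKM with DMSO and 6.36 ± 0.671 with YM155 (SD, n = 3; adjusted p = 6.8e-08). Of 11 markers of simple epithelium and colon, 10 reached 1 FPKM in any library, and CDX1 did not. CDX2 was under 1 FPKM in all YM155 libraries (0.973, 0.857 and 0.686). These markers moved both ways: KRT20 and CEACAM5 rose 6.71-fold and 6.66-fold, while VIL1 and CDX2 fell 1.73-fold and 3.81-fold. None of 7 fibroblast and 5 endothelial markers reached 1 FPKM in any library. Of 7 leukocyte markers, LYZ, CD68 and CD14 (the last with DMSO only) reached 1 FPKM in any library, while PTPRC and CD3E were at or near 0. The summed level of the 7 ran from 1816 to 2081 with DMSO and from 2003 to 2145 with YM155. Nearly all of that sum was LYZ, at 1809 to 2075 FPKM with DMSO and 1921 to 2056 with YM155. CD68, which is also a lysosomal protein of other cells, went from 3.81 to 5.56 FPKM with DMSO to 78.9 to 87.8 with YM155.

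Of the 40 genes, 38 were at 1 FPKM or more in all 6 libraries, PDK3 in 4 of them (3 with DMSO, 1 with YM155) and SLC2A3 in none. Of the 39 tested, 20 were higher with YM155 (51.3%, against 43.6% of all tested genes), 12 were lower (30.8%, against 41%) and 7 did not pass (15.3% of all tested genes did not). With upper-quartile or common sum scaling the split was 17 higher and 18 lower, while 36.4% or 37.4% of all calls were higher instead of 51.5%. For each of the 32 called genes the libraries of the groups lay apart. The median log2 change of the 39 was 0.24, beside 0.02 over all tested genes. Of the 39, 6, 6 and 14 lay in deciles 8, 9 and 10 of abundance, and abundant genes leaned upward as a whole. In those deciles 59% to 60.7% of all tested genes were higher and 25.1% to 27.9% lower, with median log2 changes of 0.31 to 0.37. Set beside genes of their own decile, 21 of the 39 were above its median and 18 below. Of the 39, 11 were called higher with a log2 change of at least 1, beside 15.9% of all tested genes. PDK2 alone fell by as much, beside 11.8% of all tested genes. These were bulk samples, in which fewer cells of a kind and less RNA per cell cannot be told apart. The 3 main groups are described by their counts and medians, and the difference between them was not tested. The other HIF targets had a median log2 change of 1.14, with 5 of 8 higher and 2 lower. The glycolytic enzymes had a median of 0.14, with 8 of 17 higher and 6 lower (6 and 9 under upper-quartile or common sum scaling), and the PFKFB and PDK regulators one of 0.00, with 2 of 7 higher and 3 lower. Scaling moved these middles: over the 5 other scalings the median was 0.81 to 1.17 for the other HIF targets and -0.26 to 0.18 for the enzymes and -0.32 to 0.19 for the regulators, so the sign of the latter 2 depended on the scaling, as did their order (-0.26 and 0.10 under quantile normalization).

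**Figure D1:**
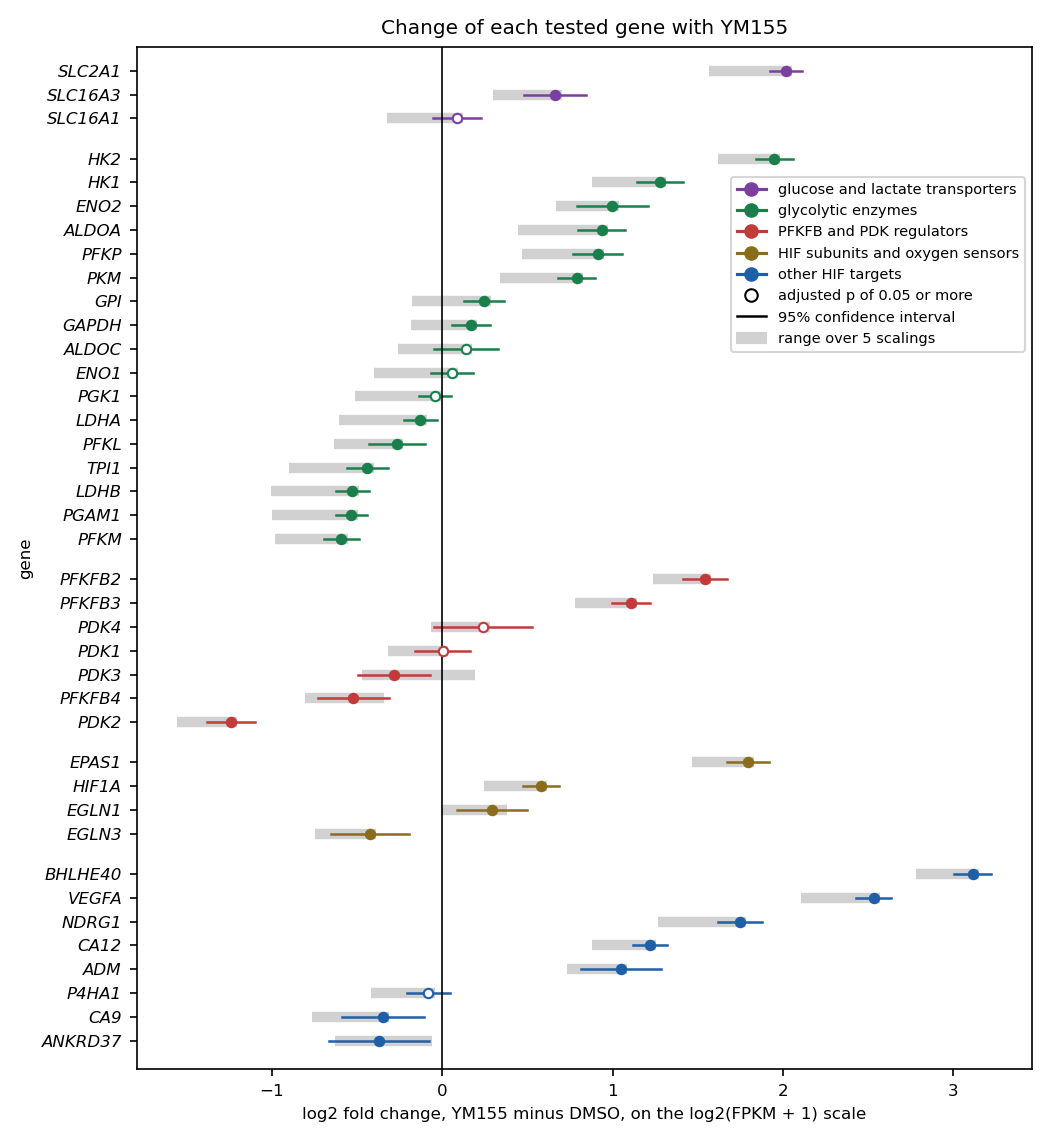
Log2 fold change (YM155 minus DMSO, x axis, log2(FPKM + 1) scale) of the 39 tested genes by group; points are estimates, lines 95% confidence intervals, open points did not pass, and grey bars show the range over 5 other scalings. HK2, HK1, SLC2A1, PFKFB2, EPAS1 and 5 of the 8 other HIF targets sit to the right under every scaling, while the grey bars of GPI, GAPDH, ALDOC, ENO1, SLC16A1, PDK1, PDK3, PDK4 and EGLN1 cross 0.

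HIF binds the short letters ACGTG or GCGTG, the core of the hypoxia response element, and promoters were read for these on both strands. RefSeq windows of 250 bases before a gene's start (build GRCh38.p14) were at hand for 35 of the 40 genes. ACGTG was found in 21 of these 35 (60.0%) and in 29% of the 8973 tested genes with a window. GCGTG was found in 51.4% of the 35 and 53.2% of the tested genes. CACGTG, the E-box bound by MYC and other basic helix-loop-helix proteins, holds ACGTG on both strands and so counts as 2 matches of it; it was found in 25.7% and 11.3%. HK2, LDHA, ALDOC, ANKRD37 and BHLHE40 had at least 3 ACGTG matches, which 2.96% of tested genes did. Those windows are printed because they are the densest among these genes, and that of CA9 because it is a widely used marker of hypoxia. They read 5′ to 3′ on the gene's strand up to the base before the start, with ACGTG on either strand in capitals. HK2 lies at chr2:74834920-74835169 (plus strand, 1 of 2 listed starts), LDHA at chr11:18394313-18394562 (plus, 1 of 2 listed starts), ALDOC at chr17:28576896-28577145 (minus), BHLHE40 at chr3:4979187-4979436 (plus), ANKRD37 at chr4:185396591-185396840 (plus) and CA9 at chr9:35673678-35673927 (plus).
HK2: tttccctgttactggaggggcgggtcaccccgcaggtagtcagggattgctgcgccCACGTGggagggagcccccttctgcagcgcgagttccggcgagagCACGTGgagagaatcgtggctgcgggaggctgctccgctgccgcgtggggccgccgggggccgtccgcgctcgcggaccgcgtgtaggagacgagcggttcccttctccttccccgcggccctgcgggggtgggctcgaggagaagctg
LDHA: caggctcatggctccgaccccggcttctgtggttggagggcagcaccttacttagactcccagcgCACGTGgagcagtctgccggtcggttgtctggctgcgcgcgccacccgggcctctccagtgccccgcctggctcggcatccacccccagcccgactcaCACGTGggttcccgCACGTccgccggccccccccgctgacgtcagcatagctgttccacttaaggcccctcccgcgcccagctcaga
ALDOC: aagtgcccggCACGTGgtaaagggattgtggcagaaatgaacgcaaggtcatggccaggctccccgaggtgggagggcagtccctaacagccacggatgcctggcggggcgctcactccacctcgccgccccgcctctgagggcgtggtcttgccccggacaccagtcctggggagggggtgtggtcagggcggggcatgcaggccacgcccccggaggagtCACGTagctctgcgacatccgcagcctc
BHLHE40: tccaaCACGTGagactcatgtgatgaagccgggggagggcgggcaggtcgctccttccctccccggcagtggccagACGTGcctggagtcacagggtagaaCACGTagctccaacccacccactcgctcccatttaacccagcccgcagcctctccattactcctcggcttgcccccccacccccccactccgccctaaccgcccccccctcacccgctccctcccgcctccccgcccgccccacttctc
ANKRD37: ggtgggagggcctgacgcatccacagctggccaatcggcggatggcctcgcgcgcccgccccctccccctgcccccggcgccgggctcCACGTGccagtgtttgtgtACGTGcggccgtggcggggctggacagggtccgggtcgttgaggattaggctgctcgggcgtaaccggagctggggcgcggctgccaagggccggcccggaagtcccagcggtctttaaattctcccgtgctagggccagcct
CA9: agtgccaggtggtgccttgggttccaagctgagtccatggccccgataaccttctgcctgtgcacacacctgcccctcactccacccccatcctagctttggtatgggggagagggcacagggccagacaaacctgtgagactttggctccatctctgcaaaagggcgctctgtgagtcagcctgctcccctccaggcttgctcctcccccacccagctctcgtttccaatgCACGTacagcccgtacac
HK2 held 2 CACGTG, with first bases of the ACGTG matches at 194, 193, 149 and 148 bases before the start. LDHA held 2 CACGTG and a further match, at 73 bases. CA9 held a single match, 18 bases before its start. Among these 6 genes with matches, HK2 and BHLHE40 rose, LDHA, ANKRD37 and CA9 fell, and ALDOC did not pass. Over all 35 genes, ACGTG was in 10 of 17 that rose (58.8%), 7 of 12 that fell (58.3%) and 4 of 6 that did not pass (66.7%). A match is a run of letters and not a measured binding site.

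Among the transporters SLC2A1 and SLC16A3 rose, SLC16A1 did not pass, and SLC2A3 was listed at 0 in nearly all libraries. SLC2A1 (GLUT1), the basal glucose importer, was at 111, 114 and 114 FPKM with DMSO and 477, 457 and 447 with YM155. Every treated library was thus far above every control, by 4.08-fold (log2 change 2.02, SE 0.04, adjusted p = 6.6e-10). SLC2A3 (GLUT3), a high-affinity importer best known from neurons, was listed at 0 in 5 libraries and at 0.0350 in YM155 replicate 1, and was not tested. The lactate exporter SLC16A3 (MCT4) was at 23.3, 25.9 and 27.2 FPKM with DMSO and 44.8, 41.2 and 36.9 with YM155. It rose 1.61-fold (log2 change 0.66, SE 0.08, adjusted p = 4.2e-05), with a log2 change of 0.30 to 0.70 over the 5 other scalings. SLC16A1 (MCT1), which carries lactate either way, overlapped between groups at 40.6 ± 2.67 and 43.1 ± 2.32 FPKM (SD, n = 3; adjusted p = 0.21). Its log2 change of 0.09 became -0.23 to -0.32 under upper-quartile, common sum, quantile and loess scaling. BSG, the chaperone that brings both lactate carriers to the membrane, did not pass (161 ± 9.69 and 168 ± 6.79 FPKM, adjusted p = 0.37).

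**Figure D2:**
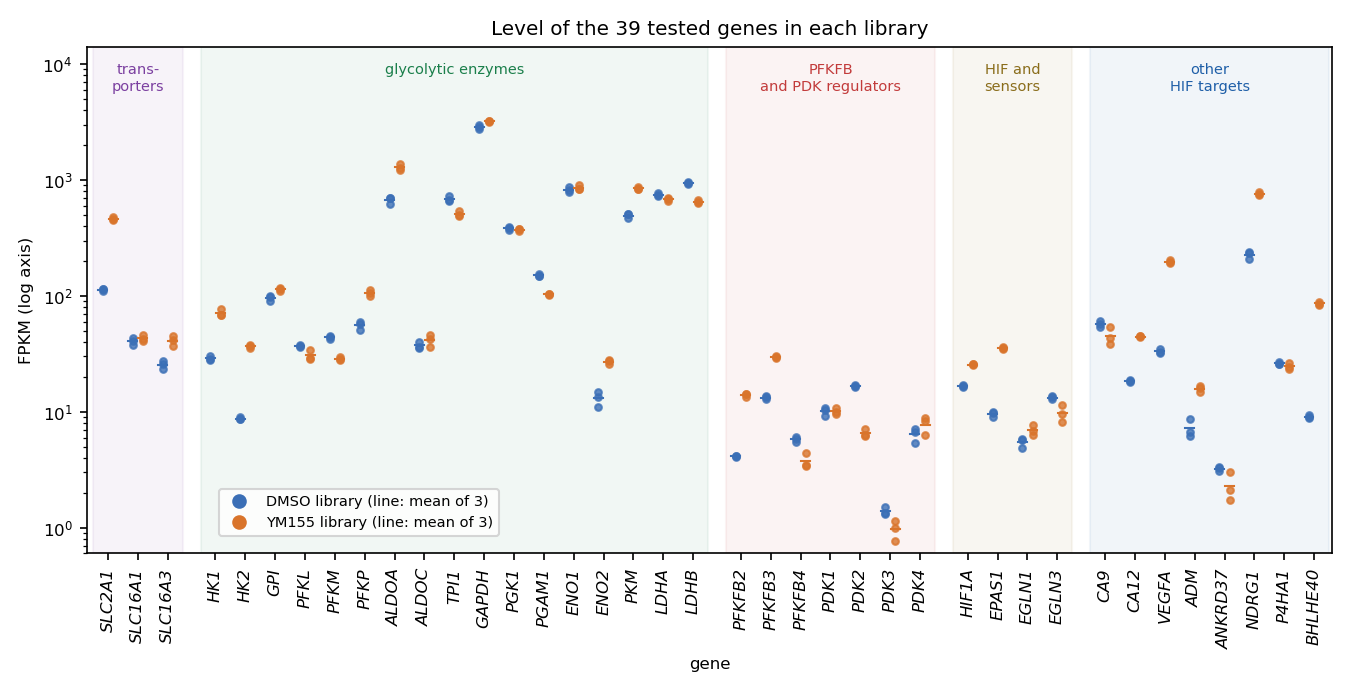
FPKM (y axis, log scale) of the 39 tested genes in each of the 6 libraries, with DMSO and YM155 libraries as separate colours and a line at each mean. Glycolytic enzymes reach the highest levels, up to GAPDH at 2857 and 3204 FPKM on average, and the colours separate most for SLC2A1, HK2, VEGFA and BHLHE40.

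Within glycolysis the mRNAs of the enzymes did not move together: HK1, HK2, PFKP, ALDOA, ENO2 and PKM rose under all alternatives run, while PFKL, PFKM, TPI1, PGAM1 and LDHB fell under all of them. Scaling set the size of the smaller changes: over the 5 other scalings the log2 change ran from 0.47 to 0.95 for PFKP, 0.45 to 0.97 for ALDOA and 0.34 to 0.83 for PKM. It ran from -0.64 to -0.23 for PFKL, -0.98 to -0.55 for PFKM, -0.90 to -0.40 for TPI1, -1.0 to -0.50 for PGAM1 and -1.0 to -0.49 for LDHB. At phosphofructokinase, aldolase and enolase, the gene that rose stood beside a relative that fell or did not pass. Hexokinase, which traps glucose as its phosphate, rose in both listed forms. HK2, the inducible form common in tumours, was at 8.63, 8.64 and 8.93 FPKM with DMSO and 37.5, 35.7 and 36.6 with YM155, a 4.19-fold rise (log2 change 1.95, SE 0.05, adjusted p = 1.9e-09). HK1, the housekeeping form, was at 27.7, 28.6 and 30.3 FPKM with DMSO and 77.3, 68.2 and 69.0 with YM155, 2.48-fold higher (adjusted p = 8.4e-08). HK1 remained the more abundant of this pair in all 6 libraries.

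Phosphofructokinase, the committed step, has 3 isoforms that build mixed tetramers, and they split. The platelet isoform PFKP was at 51.0, 57.3 and 59.1 FPKM with DMSO and 111, 105 and 101 with YM155, a 1.89-fold rise (adjusted p = 1e-06). The muscle isoform PFKM was at 44.2, 44.7 and 42.5 and then 29.7, 27.9 and 28.6 FPKM, 1.52-fold lower (adjusted p = 2.1e-06). The liver isoform PFKL was at 35.9, 38.0 and 36.7 and then 34.3, 29.1 and 28.3 FPKM, 1.2-fold lower (adjusted p = 0.0069). PFKP was the most abundant of the 3 in each library, and its share of their summed FPKM went from 40.9% ± 1.92 to 64.1% ± 0.706 (SD, n = 3). GPI, which feeds this step, rose from 96.1 ± 5.67 to 114 ± 2.84 FPKM (SD, n = 3; log2 change 0.25, adjusted p = 0.0015), a direction that turned to between -0.07 and -0.18 under upper-quartile, common sum, quantile and loess scaling.

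Aldolase cuts the 6-carbon sugar, and ALDOA is its main form outside liver and brain. ALDOA was at 623, 694 and 693 FPKM with DMSO and 1362, 1259 and 1226 with YM155, 1.91-fold higher (adjusted p = 5.9e-07). The brain form ALDOC overlapped, at 35.7, 39.9 and 36.4 and then 45.8, 36.2 and 42.1 FPKM (adjusted p = 0.15). ALDOC was called higher without YM155 replicate 2 (log2 change 0.23) and lower under quantile normalization (-0.26). TPI1, which interconverts the cut products, went the other way from 677, 721 and 661 to 537, 494 and 486 FPKM (1.36-fold lower, adjusted p = 4.3e-05). The aldolase that makes the substrate of TPI1 thus rose in all 3 treated libraries while TPI1 fell in all 3.

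In the middle of the pathway PGAM1 fell and ENO2 rose, while GAPDH, PGK1 and ENO1 had log2 changes within 0.17 of 0 as deposited. GAPDH, which makes NADH and is often used as a reference gene, was the most abundant of the 40 at 2857 ± 126 FPKM with DMSO and 3204 ± 41.8 with YM155 (SD, n = 3; log2 change 0.17, adjusted p = 0.011), but its sign turned to -0.18 and -0.16 under upper-quartile and common sum scaling. PGK1, the first step that returns ATP, did not pass at 382 ± 13.1 and 371 ± 6.03 FPKM (95% interval of the log2 change -0.14 to 0.05). ENO1, the main enolase, did not pass either, at 825 ± 41.3 and 857 ± 41.8 FPKM (-0.07 to 0.18), and both were called lower under upper-quartile, common sum, quantile and loess scaling. PGAM1, which shifts the phosphate between them, was at 148, 155 and 147 FPKM with DMSO and 104, 101 and 104 with YM155, 1.45-fold lower (adjusted p = 1.7e-06). ENO2, the neuronal enolase, was far scarcer than ENO1 and rose from 11.1, 14.7 and 13.5 to 25.7, 27.5 and 27.9 FPKM (2.06-fold, adjusted p = 6.1e-06).

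At the end of the pathway, pyruvate kinase and lactate dehydrogenase parted. PKM, which makes pyruvate and ATP, was at 465, 504 and 508 FPKM with DMSO and 875, 839 and 839 with YM155, 1.73-fold higher (adjusted p = 4.2e-07). Gene-level FPKM does not tell its M1 and M2 splice forms apart. LDHB, the subunit favouring lactate use, was at 921, 953 and 935 and then 673, 629.7 and 645 FPKM, 1.44-fold lower (adjusted p = 2.7e-06). LDHA, the subunit favouring lactate formation, went from 726, 735 and 769 to 693, 659.9 and 687 FPKM (log2 change -0.13, adjusted p = 0.02). That fall was larger under upper-quartile (-0.48), common sum (-0.45), quantile (-0.61) and loess scaling (-0.36), and it no longer passed with median-of-ratios scaling (-0.09), with a replicate block, or without DMSO replicate 3 (-0.10) or YM155 replicate 2 (-0.11). Processed pseudogenes make the levels of several of these abundant genes uncertain, since RefSeq names 65 after GAPDH, 13 after PGAM1, 6 after LDHA and 5 after PKM, and the sources used here do not say how multiply mapped reads were shared.

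Because the enzymes are abundant and abundant genes leaned upward as a whole, each was also set beside genes of its own level. The median log2 change rose from -0.52 in the scarcest decile of tested genes to 0.37 in the ninth decile and 0.31 in the most abundant, where 11 of the 17 enzymes lay. Only 6 of the 17 enzymes were above the median of their own decile, as were 21 of the 39 tested genes. The 6 were those that rose under all alternatives, HK1, HK2, PFKP, ALDOA, ENO2 and PKM. Summed over the 17, enzyme mRNA was 8064 ± 239 FPKM with DMSO and 8958 ± 253 with YM155 (SD, n = 3). As a share of all FPKM in a library, it went from 1.47% ± 0.00643 to 1.31% ± 0.0180, with all YM155 libraries below all DMSO libraries.

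**Figure D3:**
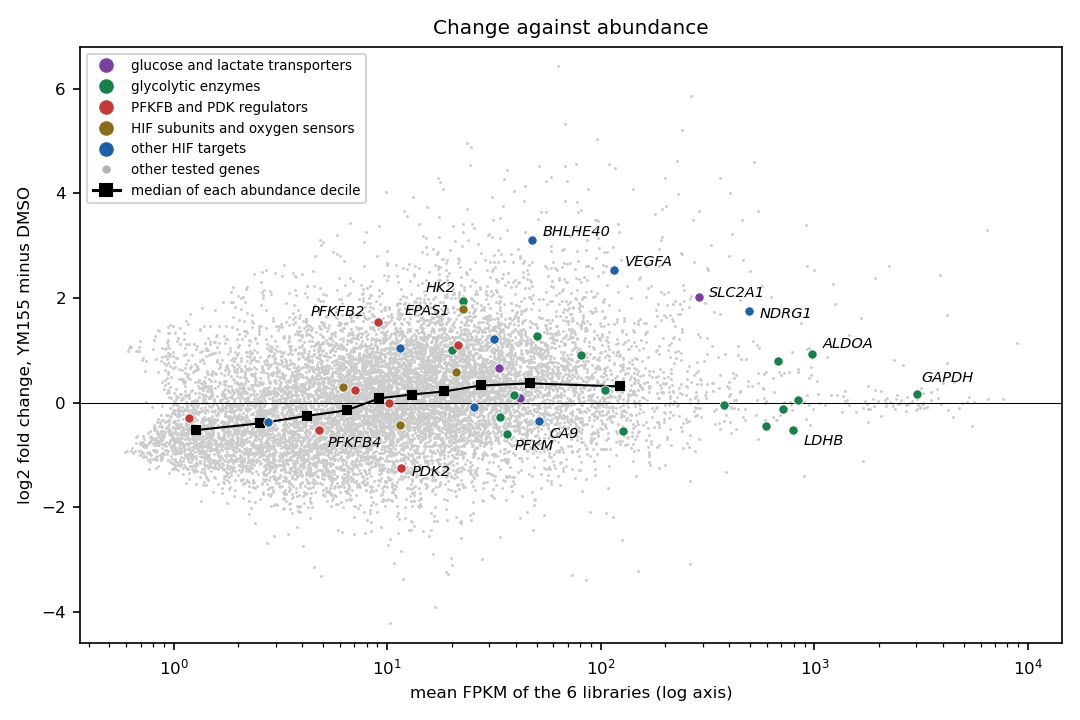
Log2 fold change (y axis) against the mean FPKM of the 6 libraries (x axis, log scale) for all 12035 tested genes in grey, the 39 tested genes in colour by group, and the median of each abundance decile as black squares. Many enzymes sit at or under the black line on the right, while BHLHE40, VEGFA, SLC2A1 and NDRG1 stand well above it.

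The regulators split within both families. PFKFB enzymes make and remove fructose 2,6-bisphosphate, the strongest activator of phosphofructokinase, and PDK enzymes switch off pyruvate dehydrogenase and so keep pyruvate out of the mitochondria. PFKFB2 and PFKFB3 rose, PFKFB4, PDK2 and PDK3 fell, and PDK1 and PDK4 did not pass. PFKFB2, the heart form, was at 4.14, 4.17 and 4.05 FPKM with DMSO and 13.3, 14.3 and 14.1 with YM155, 3.38-fold higher (log2 change 1.54, SE 0.06, adjusted p = 2.1e-08). PFKFB3, the inducible form with the strongest kinase bias, was at 12.8, 13.7 and 13.3 and then 30.3, 29.7 and 29.2 FPKM, 2.24-fold higher (adjusted p = 5.3e-08). PFKFB4, also known as a gene induced by hypoxia, went from 5.47, 6.12 and 5.88 to 4.41, 3.43 and 3.47 FPKM (1.54-fold lower, log2 change -0.52, adjusted p = 0.00053; -0.81 to -0.34 over the 5 other scalings). All 3 kept their calls under every alternative in which they were tested, and the groups of each lay apart.

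PDK2, the widely expressed form, was the only one of the 39 to fall by a log2 change of 1 or more as deposited. It was at 16.5, 17.2 and 16.6 FPKM with DMSO and 7.04, 6.18 and 6.36 with YM155, 2.57-fold lower (log2 change -1.24, SE 0.06, adjusted p = 1.2e-07). PDK1, the form best known as a HIF target, was at 10.4, 9.24 and 10.8 FPKM and then 10.8, 9.66 and 10. Its log2 change was 0.00, with a 95% interval of -0.16 to 0.16 (adjusted p = 0.99), and under upper-quartile and common sum scaling it was called lower at -0.32 and -0.29. PDK4, known as a starvation-induced form, was at 6.63, 5.41 and 7.12 and then 6.26, 8.78 and 8.25 FPKM (adjusted p = 0.10). YM155 replicate 1 was the lowest of the treated libraries, and without it PDK4 was called higher (log2 change 0.37). PDK3 was near the limit of measurement, at 1.51, 1.35 and 1.31 and then 0.986, 0.767 and 1.15 FPKM (adjusted p = 0.019), and its sign turned to 0.10 and 0.19 under quantile and loess scaling. Its call was also lost without DMSO replicate 1 or YM155 replicate 2. PDK3, 1 of the 3 lower regulators, passed the filter through the DMSO libraries, since only 1 YM155 library reached 1 FPKM.

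The alpha subunits of HIF both rose at the mRNA level. EPAS1 was at 9.69, 9.01 and 9.91 FPKM with DMSO and 34.5, 35.6 and 36.5 with YM155, 3.72-fold higher (log2 change 1.79, SE 0.05, adjusted p = 5.8e-09). HIF1A was at 17.2, 16.4 and 16.6 FPKM and then 25.1, 25.6 and 25.7, 1.52-fold higher (log2 change 0.58, SE 0.05, adjusted p = 2.5e-06), with a log2 change of 0.25 to 0.62 over the 5 other scalings. HIF1A was the more abundant of the pair in the 3 DMSO libraries and EPAS1 in the 3 YM155 libraries. The antisense RNA HIF1A-AS2 was listed at 1.19 to 3.11 FPKM with DMSO and 2.58 to 5.48 with YM155, and the sources used here do not say whether strand was used in counting.

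The oxygen sensors EGLN3 and EGLN1 were called in opposite directions. EGLN3 (PHD3), itself a strong HIF target, was at 13.7, 12.8 and 13.3 FPKM with DMSO and 11.4, 8.17 and 9.55 with YM155, 1.37-fold lower (log2 change -0.42, adjusted p = 0.0032; -0.75 to -0.39 over the 5 other scalings). EGLN1 (PHD2), the main hydroxylase of HIF1A, was at 5.83, 4.85 and 5.72 and then 6.27, 7.68 and 6.8 FPKM (log2 change 0.29, adjusted p = 0.013), a rise that vanished under upper-quartile (-0.01) and common sum scaling (0.01) and lost its call without DMSO replicate 2 (0.22). EGLN2 (PHD1), outside the 40 genes, was more abundant than both and rose 2.99-fold, from 43.4 ± 1.90 to 130 ± 8.44 FPKM (SD, n = 3; adjusted p = 1.9e-08).

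Of the 8 other HIF targets, BHLHE40, VEGFA, NDRG1, CA12 and ADM rose by a log2 change of more than 1 as deposited. CA9 and ANKRD37 fell, and P4HA1 did not pass. BHLHE40 (DEC1), a basic helix-loop-helix repressor of the clock and of differentiation, was at 8.78, 9.0 and 9.32 FPKM with DMSO and 89.2, 83.9 and 84.7 with YM155. That was a 9.51-fold rise (log2 change 3.11, SE 0.05, adjusted p = 1.9e-10) and ranked 92 of the 12035 tested genes from the top. VEGFA, the angiogenic growth factor, was at 32.1, 34.7 and 33.0 and then 198, 192 and 202 FPKM, 5.93-fold higher (log2 change 2.53, SE 0.04, adjusted p = 3.4e-10; rank 211). NDRG1, a stress- and differentiation-induced gene of epithelia, was already abundant at 207, 239 and 234 FPKM and reached 785, 754 and 748, 3.36-fold higher (adjusted p = 1e-08; rank 601). All 3 are known also as targets of stress pathways other than HIF.

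CA12 and CA9 encode carbonic anhydrases on the cell surface that help regulate pH, and they moved apart. CA12 was at 18.1, 18.8 and 18.6 FPKM with DMSO and 44.7, 43.8 and 44.7 with YM155, 2.40-fold higher (adjusted p = 1.5e-08). CA9 was at 54.1, 60.5 and 57.4 and then 53.7, 38.4 and 43.5 FPKM, 1.27-fold lower (log2 change -0.35, SE 0.11, adjusted p = 0.013; -0.76 to -0.31 over the 5 other scalings). YM155 replicate 1 of CA9 lay just under the lowest control, so the groups barely separated. ADM, the vasodilator peptide adrenomedullin, rose from 6.23, 6.68 and 8.62 to 14.9, 16 and 16.6 FPKM (2.21-fold, adjusted p = 1e-05). ANKRD37, a small ankyrin-repeat gene with little background expression, went from 3.10, 3.24 and 3.35 to 3.03, 2.14 and 1.75 FPKM (log2 change -0.37, adjusted p = 0.023). Its call was lost without any of DMSO replicate 2 or 3 and YM155 replicate 2 or 3 (log2 change -0.25 to -0.37), and under quantile (-0.11) and loess scaling (-0.06). P4HA1, a collagen prolyl hydroxylase, was at 26.2 ± 0.767 and 24.7 ± 1.48 FPKM (SD, n = 3; adjusted p = 0.19) and was called lower under upper-quartile, common sum, quantile and loess scaling (-0.39 to -0.42).

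Ratios of related genes within a library do not change when a library is multiplied by a factor, as in median-of-ratios, upper-quartile and common sum scaling, though quantile and loess scaling alter them. As deposited, 14 pairs were compared this way. In all 14 the libraries of the groups did not overlap, which gives the smallest p that an exact two-sided permutation test of 3 against 3 libraries allows, 0.1 (0.1 after adjustment over the 14), so none could reach 0.05. Single genes already lay apart between groups for 44.4% (above) and 41.5% (below) of tested genes, and the share among other gene pairs was not computed. PDK1 to PDK2 was 0.632, 0.538 and 0.647 with DMSO and 1.53, 1.56 and 1.57 with YM155, so the order of these kinases reversed in every treated library. EPAS1 to HIF1A reversed likewise, from 0.564, 0.549 and 0.598 to 1.37, 1.39 and 1.42. LDHA to LDHB crossed 1 too, from 0.788, 0.771 and 0.823 to 1.03, 1.05 and 1.06. PFKP to PFKL went from 1.51 ± 0.0949 to 3.47 ± 0.197 and HK2 to HK1 from 0.303 ± 0.00831 to 0.513 ± 0.0244 (SD, n = 3). ENO2 to ENO1 stayed small, going from 0.0159 ± 0.00206 to 0.0316 ± 0.00279. CA9 to CA12 went the other way, from 3.10 ± 0.114 to 1.02 ± 0.168, and PFKFB4 to PFKFB3 from 0.439 ± 0.0103 to 0.127 ± 0.0165. The remaining pairs were SLC16A3 to SLC16A1 (0.631 to 0.955), PDK3 to PDK2 (0.0830 to 0.149), PFKM to PFKL (1.19 to 0.944), PFKFB3 to PFKFB2 (3.22 to 2.14), ALDOC to ALDOA (0.0558 to 0.0322) and EGLN3 to EGLN1 (2.44 to 1.43).

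**Figure D4:**
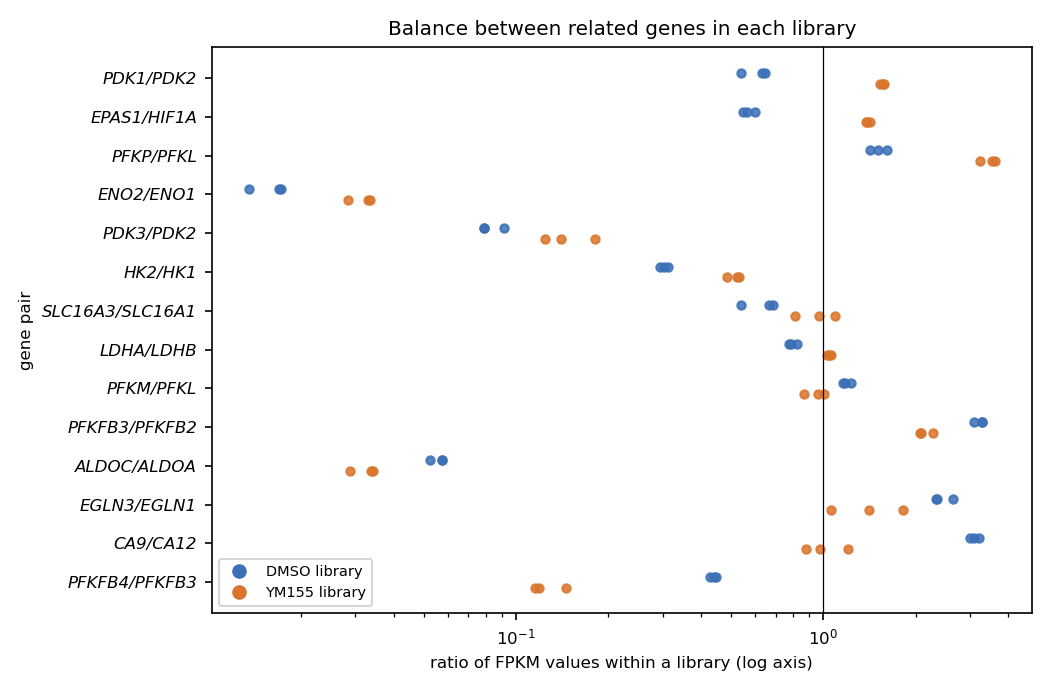
Ratio of the FPKM values of 2 related genes within a library (x axis, log scale) for 14 pairs, with 1 point per library and DMSO and YM155 libraries in separate colours. The colours do not overlap in any pair, and PDK1/PDK2, EPAS1/HIF1A and LDHA/LDHB lie on opposite sides of 1 in the 2 groups.

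Other parts of sugar metabolism held rises and falls too. Of 13 tested genes listed with glucose breakdown outside the 17 enzymes (23 were listed), 6 rose (46.2%, against 43.6% of all tested genes) and 4 fell (30.8%, against 41%), with a median log2 change of 0.06. Under upper-quartile or common sum scaling 4 were higher and 7 lower. PGAM5, 1 of the 6 that rose and named after its values were seen, is counted by the list alone. Its part in glucose breakdown was not checked. The largest change was that of HKDC1, a further hexokinase known from gut epithelium, at 11.2, 13.5 and 13.2 FPKM with DMSO and 141, 139.7 and 139 with YM155. It rose 11.1-fold (adjusted p = 6e-10). With it counted, HK1 went from 57.4% ± 1.00 to 28.8% ± 1.26 of summed hexokinase FPKM, HK2 from 17.4% ± 0.652 to 14.7% ± 0.161 and HKDC1 from 25.2% ± 1.54 to 56.4% ± 1.2 (SD, n = 3). The summed level of the 3 hexokinases went from 50.2 ± 2.50 to 248 ± 6.52 FPKM. PGM2 rose 1.48-fold and PGM1 fell 1.59-fold (adjusted p = 1.4e-05 and 3.5e-05), both phosphoglucomutases. SLC2A12, a minor glucose carrier and 1 of the 4 lower calls, passed the filter only through the DMSO libraries (1.94 ± 0.111 and 0.752 ± 0.132 FPKM). Every YM155 library was under 1 FPKM.

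Genes of gluconeogenesis, the reverse route, split evenly, with 3 of 6 tested higher and 3 lower under all scalings run (43.6% and 41% of all tested genes). PCK1, one of the 3 higher and named after its values were seen, passed the filter only through the YM155 libraries (0.762 ± 0.141 and 1.43 ± 0.223 FPKM). FBP1, the bisphosphatase that opposes phosphofructokinase, fell from 57.5 ± 1.44 to 18.3 ± 1.60 FPKM (3.14-fold, adjusted p = 2.8e-08). SLC37A4, the carrier of glucose 6-phosphate into the endoplasmic reticulum, fell 2.53-fold (adjusted p = 6.9e-07). PCK2, the mitochondrial carboxykinase, rose from 8.50 ± 0.325 to 22.4 ± 1.17 FPKM (2.64-fold, adjusted p = 6.6e-08), and PC, pyruvate carboxylase, rose 1.60-fold (adjusted p = 1.6e-05). FBP1 thus fell in libraries in which PFKP, PFKFB2 and PFKFB3 rose and PFKL, PFKM and PFKFB4 fell.

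Of 10 genes for the entry of pyruvate into mitochondria, 3 rose (30%, against 43.6% of all tested genes), 4 fell (40%, against 41%) and 3 did not pass (median log2 change -0.10). Under upper-quartile scaling 2 were higher and 7 lower, and under common sum or quantile scaling 2 and 6. PDP1 and PDP2, the phosphatases that undo the work of the PDK enzymes, rose 3.25-fold and 2.03-fold (adjusted p = 2.2e-07 and 1.7e-06), next to the fall of PDK2. PDHB, a subunit of pyruvate dehydrogenase itself, fell 1.71-fold and MPC2, of the mitochondrial pyruvate carrier, 1.39-fold (adjusted p = 1.1e-05 and 1.9e-05). DLD did not pass (adjusted p = 0.058). In the glycogen and hexosamine branches 8 of 13 tested genes rose (61.5%, against 43.6% of all tested genes) and 3 fell (23.1%, against 41%; median 0.30). GFPT1, which commits sugar to hexosamines, rose from 32.6 ± 1.74 to 131 ± 8.79 FPKM (4.03-fold, adjusted p = 6.9e-09), and the glycogen phosphorylase PYGB from 172 ± 4.39 to 412 ± 16.3 (2.39-fold, adjusted p = 1.5e-08). GYG1 rose 1.51-fold and UGP2 1.42-fold, the latter without a call under 1 of 5 other scalings, and GYS1, glycogen synthase, did not pass (adjusted p = 0.091). That list's excess of rises depended on scaling, with 5 higher and 6 lower under upper-quartile scaling.

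Of 11 tested components of the HIF pathway beyond the 40 genes, 6 rose (54.5%, against 43.6% of all tested genes) and 3 fell (27.3%, against 41%; median 0.19). Under upper-quartile scaling 3 were higher and 5 lower, and under common sum scaling 3 and 4. The coactivators CREBBP and EP300 rose 3.84-fold and 1.72-fold (adjusted p = 6.3e-09 and 1.9e-06). RBX1, of the ligase that destroys the alpha subunits, fell 1.42-fold (adjusted p = 3.7e-05), and CUL2 of the same complex did not pass (adjusted p = 0.31). Of 32 tested further HIF targets (43 were listed), 19 rose (59.4%, against 43.6% of all tested genes) and 9 fell (28.1%, against 41%), a median of 0.26, and under upper-quartile scaling 10 rose and 13 fell. Some of the 19, RORA among them (named after its values were seen), passed the filter only through the YM155 libraries. DDIT4 (REDD1), an inhibitor of mTORC1 also induced by other stresses, rose from 41.3 ± 5.46 to 536 ± 30.9 FPKM (13-fold, adjusted p = 1.8e-09). P4HA2, the relative of P4HA1, rose 2.35-fold and INSIG1, which restrains sterol synthesis, 2.25-fold (adjusted p = 5.2e-08 and 1e-07). TPD52 did not pass (adjusted p = 0.22). BSG, DLD, GYS1 and TPD52, given here as not passing, were each called under 4 of the 5 other scalings. Of the 32, 8 (RORA among them) rose by a log2 change of at least 1 as deposited, beside 15.9% of all tested genes. Only 2 fell by as much, beside 11.8% of all tested genes, and these 2 are named here after their values were seen. HILPDA, a lipid droplet protein widely used as a hypoxia marker, went from 23.9 ± 0.861 to 8.62 ± 0.895 FPKM, and the chemokine receptor CXCR4 from 57.7 ± 3.55 to 21.0 ± 2.88 (SD, n = 3; adjusted p = 1.9e-07 and 6.8e-07). HILPDA, CA9, EGLN3 and ANKRD37 were lower in the same libraries in which VEGFA, NDRG1, BHLHE40, DDIT4, SLC2A1, CA12, ADM and P4HA2 were higher. The groups barely separated for CA9, and the call of ANKRD37 depended on single libraries and on scaling. These genes were set side by side after their values were seen, and why they differed was not tested.

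**Figure D5:**
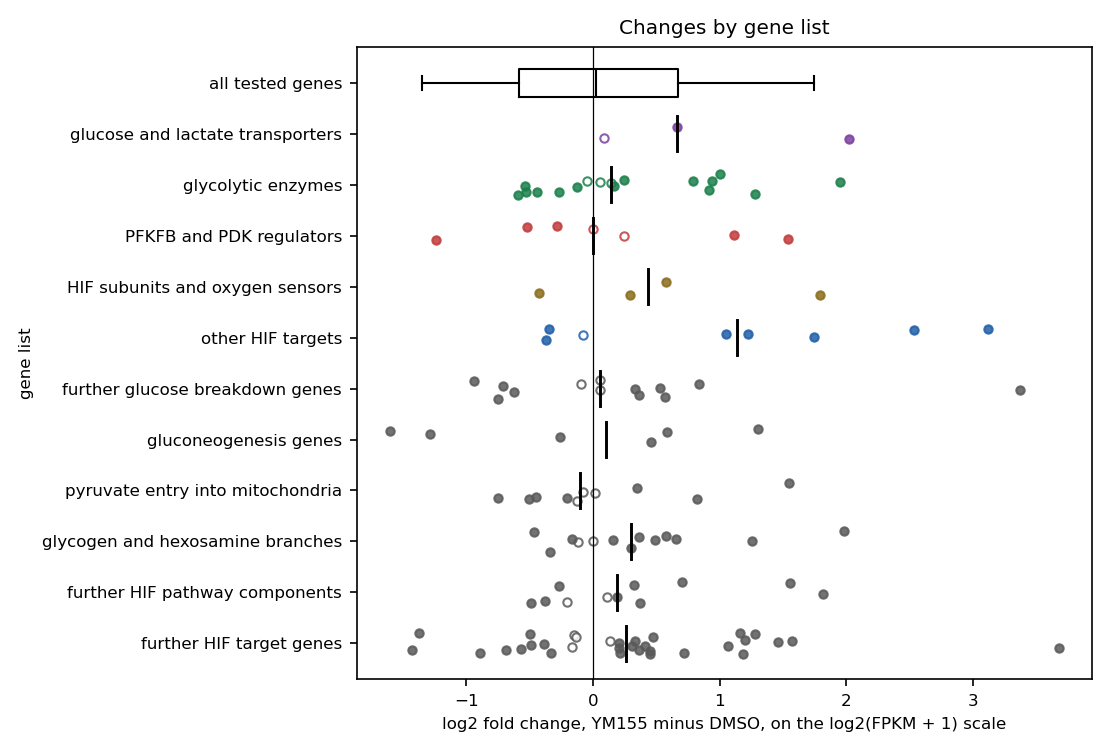
Log2 fold change (x axis) of each tested gene by list, with filled points for genes that passed, open points for those that did not, a black bar at each median, and for all tested genes a box at the quartiles with whiskers at the 5th and 95th percentiles. The median of the other HIF targets is at 1.14, and those of the glycolytic enzymes and of the PFKFB and PDK regulators are at 0.14 and 0.00.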

How the data were processed

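Messenger RNA was sequenced from 3 DMSO and 3 YM155 libraries of HT29 cells. The labels' treatment field says YM155 where the titles of the treated samples spell YM115; the treatment field was followed. The authors deposited FPKM values per gene and library. The submitters' processing notes name build hg19 and, as tools, Cuffdiff, Cufflinks 2.2.1, TopHat2 2.1.1, SAMtools 1.2 and Bowtie2 2.3.5.1. The sources used here give neither settings nor annotation, and scaling between libraries by the authors may have been applied. FPKM holds no counts. Depth was estimated from the steps of low values with an assumed fragment length of 200 bases, and between 59.9% and 66.0% of those values came within 0.1 read of whole reads, too few for a count model.

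Genes with at least 1 FPKM in at least 3 of 6 libraries were compared as log2(FPKM + 1) in R 4.3.3 with limma 3.58.1 (lmFit, then eBayes with its trend option; two-sided; Benjamini-Hochberg over all 12035 tested genes, threshold 0.05), with no replicate block. The code was tested on simulated data. Values after ± are standard deviations over 3 libraries. The genes and lists were chosen with earlier results of these data known. Named are all 40 genes, BIRC5, and of each further list up to 4 tested genes with the lowest p and the most abundant that did not pass. A gene that this rule took is not reported here. The 20 alternatives were other pseudocounts (0.1, 0.5), filters (none, mean FPKM of at least 5), scalings (median-of-ratios, upper-quartile, common sum, quantile), eBayes settings, array weights, a replicate block, a threshold of 0.01, each library left out, and cyclic loess, the last chosen after seeing the data. Promoters came from RefSeq (GRCh38.p14), since no annotation of hg19 was used here. PFKFB2, VEGFA, SLC2A3, SLC16A1 and NDRG1 were not matched to a window.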

Additional observations from a re-analysis of the deposited data

How the results depend on the processing

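Of the 39 tested genes, 25 kept direction and call under every one of the alternatives run and 14 did not. For 8 of these the sign turned with a call on either side, in each case under another scaling: SLC16A1 was at -0.26, -0.23, -0.32 and -0.25 under upper-quartile, common sum, quantile and loess scaling, GPI at -0.10, -0.0744, -0.18 and -0.11, and ENO1 at -0.29, -0.27, -0.40 and -0.17 in the same order. GAPDH was at -0.18 and -0.16 and PDK1 at -0.32 and -0.29 under upper-quartile and common sum scaling, EGLN1 at -0.00859 under upper-quartile scaling, ALDOC at -0.26 under quantile normalization, and PDK3 at 0.0975 and 0.19 under quantile and loess scaling. Over the scalings, signs also turned with no call on either side for PDK4 (-0.0640 and -0.0413 under upper-quartile and common sum scaling), ALDOC (-0.20, -0.18 and -0.20 under upper-quartile, common sum and loess scaling) and PDK1 (-0.15 and -0.10 under quantile and loess scaling). With upper-quartile or common sum scaling, 36.4% or 37.4% of all calls were higher, against 51.5% as reported, and the 39 genes gave 17 higher and 18 lower in both cases, against 20 and 12. The enzymes then gave 6 higher and 9 lower, and under quantile normalization 6 and 10, against 8 and 6. With a mean FPKM of at least 5, 2922 tested genes were lower, against 4940, and 1 of the PFKFB and PDK regulators was lower, against 3; fewer genes were tested there. The 2 lower calls among other HIF targets became 1 without a filter or with a mean FPKM of at least 5, 0 at a threshold of 0.01, and 1 to 2 when each library was left out; the call that came and went with the libraries was that of ANKRD37. Deviations of same-numbered libraries were not positively correlated (-0.071, -0.148 and -0.125). With 3 libraries per group, this cannot tell whether the replicate numbers paired the libraries. With the replicate block, 5147 genes were higher and 4861 lower, and of the 39 genes 20 were higher and 11 lower, LDHA being lost. Effective depth was lower with YM155, and how far it limited scarce genes such as PDK3 and ANKRD37 was not tested. Median-of-ratios factors of the deposited values ran from 1.017 to 1.023 with DMSO and from 0.989 to 0.996 with YM155. The absolute level of RNA per cell was not measured, so which scaling is right was not tested.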
